A study of Rattus norvegicus with 24 samples.

Results

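The 10 genes described here are Fos, Fosb, Fosl2, Jun, Junb, Egr1, Egr2, Arc, Npas4 and Nr4a1, immediate early genes of the neuronal activity response. They were taken by gene symbol from the expression tables of 24 RNA-seq libraries and are 10 of the 23950 genes listed there. All 10 had a row in every table, and no library listed any of them at 0. The libraries came from the nucleus accumbens (NAc) of Sprague Dawley rat pups killed at postnatal day (P) 14, with 4 pups from separate litters in each of 6 groups. In the F1 in utero oxycodone group (IUO), the F0 dams were gavaged with oxycodone from before mating until weaning, starting at 10 mg/kg/day and ending at 15 mg/kg/day. In the F1 postnatal oxycodone group (PNO), the dams received 15 mg/kg/day only from birth of the litter until weaning, and the F1 saline group (SAL) was the control. The F2 IUO, PNO and SAL pups were born to F1 females of these conditions that had themselves not been dosed, mated with males from outside the experiment. At P14 the F1 IUO and PNO pups were still being nursed by treated dams, and no F2 pup was. The labels do not say which pups were male or female.

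Immediate early genes are transcribed within minutes of a strong synaptic input, without new protein synthesis, from kinases that act on transcription factors already bound at their promoters. Calcium entry through NMDA receptors and L-type channels activates CREB through CaM kinases and the serum response factor SRF through ERK and Elk-1, and in striatal medium spiny neurons dopamine D1 receptor signalling feeds into the same pathway. Most of the products are themselves transcription factors: the Fos and Jun proteins pair as AP-1, the EGR proteins are zinc finger factors, Npas4 is a neuron-restricted bHLH-PAS factor and Nr4a1 an orphan nuclear receptor. Arc is the exception, a cytoskeleton-associated protein of dendrites that removes AMPA receptors from synapses. These genes are used widely in the NAc as markers of recent neuronal activity, after opioids as well as after psychostimulants.

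RefSeq promoter sequences (assembly GRCr8) were at hand for 7 of the 10 genes, Fosb, Fosl2, Junb, Egr1, Egr2, Npas4 and Nr4a1, and the entries for Fos, Jun and Arc were missing. The 250 bases before the annotated start were searched on both strands for TGACG, which reads CGTCA on the other strand and is the core that CREB binds, and for the CArG box, to which SRF binds. The core was present in 4 of the 7 promoters, against 18.2% of all 33469 promoters of the same length, and the CArG box in 2 of the 7, against 1.5%. The full palindrome TGACGTCA, which holds the core on both strands, was in 0 of the 7 and in 1.59% of all promoters, and TATAAA was in 2 of the 7 (Fosb and Junb) and in 12.9% of all. A match is a description of letters and not of a bound site. The Egr2 window (chr20:21054442-21054691, minus strand) is shown because it held both motifs, the Nr4a1 window (chr7:134259888-134260137, plus strand) because it held the most cores, and the Junb window (chr19:40080876-40081125, plus strand) as the AP-1 gene of the 3 in the table that held a core. Each is written 5′ to 3′ with TGACG or CGTCA and the CArG box in capitals.
Egr2: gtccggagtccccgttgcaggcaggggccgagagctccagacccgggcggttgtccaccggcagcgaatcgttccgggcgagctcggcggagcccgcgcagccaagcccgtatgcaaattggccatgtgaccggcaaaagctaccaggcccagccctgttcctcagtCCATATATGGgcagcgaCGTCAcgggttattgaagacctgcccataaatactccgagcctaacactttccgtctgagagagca
Nr4a1: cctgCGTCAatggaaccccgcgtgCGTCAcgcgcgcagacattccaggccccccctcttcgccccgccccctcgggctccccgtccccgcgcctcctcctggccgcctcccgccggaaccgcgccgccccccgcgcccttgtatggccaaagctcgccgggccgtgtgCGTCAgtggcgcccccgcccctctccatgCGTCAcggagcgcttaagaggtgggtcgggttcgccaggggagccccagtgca
Junb: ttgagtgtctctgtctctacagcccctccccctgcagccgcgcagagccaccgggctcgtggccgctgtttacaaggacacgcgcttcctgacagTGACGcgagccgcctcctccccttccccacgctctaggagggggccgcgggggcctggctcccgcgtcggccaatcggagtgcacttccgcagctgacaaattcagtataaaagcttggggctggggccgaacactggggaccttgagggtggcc

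In the Egr2 window the CArG box began 83 bases before the start and the core 66 bases before it. The Egr1 promoter, not printed, had the same arrangement at the same distances, with a further CArG box at 105 and a further core at 135 bases. Nr4a1 had 4 cores, at 246, 226, 82 and 53 bases, where 3.98% of all promoters had 2 or more. Junb had a core at 155 bases and TATAAA at 49 bases. Neither of the searched motifs CArG box and TGACG was found in the windows of Fosb, Fosl2 and Npas4, which says only that these letters were not in this stretch.

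The levels are FPKM, fragment numbers scaled to transcript length and to the library total, so that genes can be set beside each other. The sums of FPKM ranged from 535866 to 766781 per library, and the number of reads behind them is unknown. Markers of striatal medium spiny neurons were present in all 24 libraries, with Ppp1r1b between 167.35 and 549.36 FPKM and Drd2 between 15.78 and 69.19 FPKM. Markers of neighbouring tissue varied much more, and the summed FPKM of 8 cortical genes ran from 15.15 in F1 SAL replicate 3, where Emx1 was at 0, to 379.68 in F2 IUO replicate 2. The sum of 6 choroid plexus genes ran from 5.18 in F2 SAL replicate 1 to 12236.32 in F2 IUO replicate 1. F2 PNO replicate 1 stood apart from its group, with a cortical sum of 27.23 against 133.36 to 335.09 in the other 3 libraries and a sum of 3626.31 for 6 oligodendrocyte genes against 872.14 to 2310.03. In a tissue piece, fewer cells of a type and less RNA per cell cannot be told apart, and this holds for each level below.

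Egr1 was the most abundant of the 10 genes, at 63.1 ± 16.1 FPKM (SD, n = 24), and it was above Junb in 24 of 24 libraries. Junb followed at 23.5 ± 6.96 FPKM and Arc at 22.5 ± 6.38 FPKM, and these neighbours did not differ beyond their spread, Junb being higher in 13 of 24 libraries. Nr4a1 at 18.4 ± 7.87 and Jun at 18.04 ± 3.22 FPKM were close as well, with Nr4a1 higher in 8 of 24 libraries although its mean was higher. Arc was above Nr4a1 in 21 of 24 libraries.

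Fos, at 10.6 ± 4.27 FPKM, lay between these genes and the low members and was below Jun in 23 of 24 libraries and above Egr2 in 24 of 24. Egr2 (3.21 ± 1.54 FPKM), Npas4 (2.79 ± 1.47 FPKM) and Fosb (2.47 ± 0.764 FPKM) overlapped, with Egr2 above Npas4 in 14 libraries and Npas4 above Fosb in 11. Fosl2 was lowest, at 1.88 ± 1.08 FPKM, and it was below Fosb in 18 of 24 libraries.

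**Figure D1:**
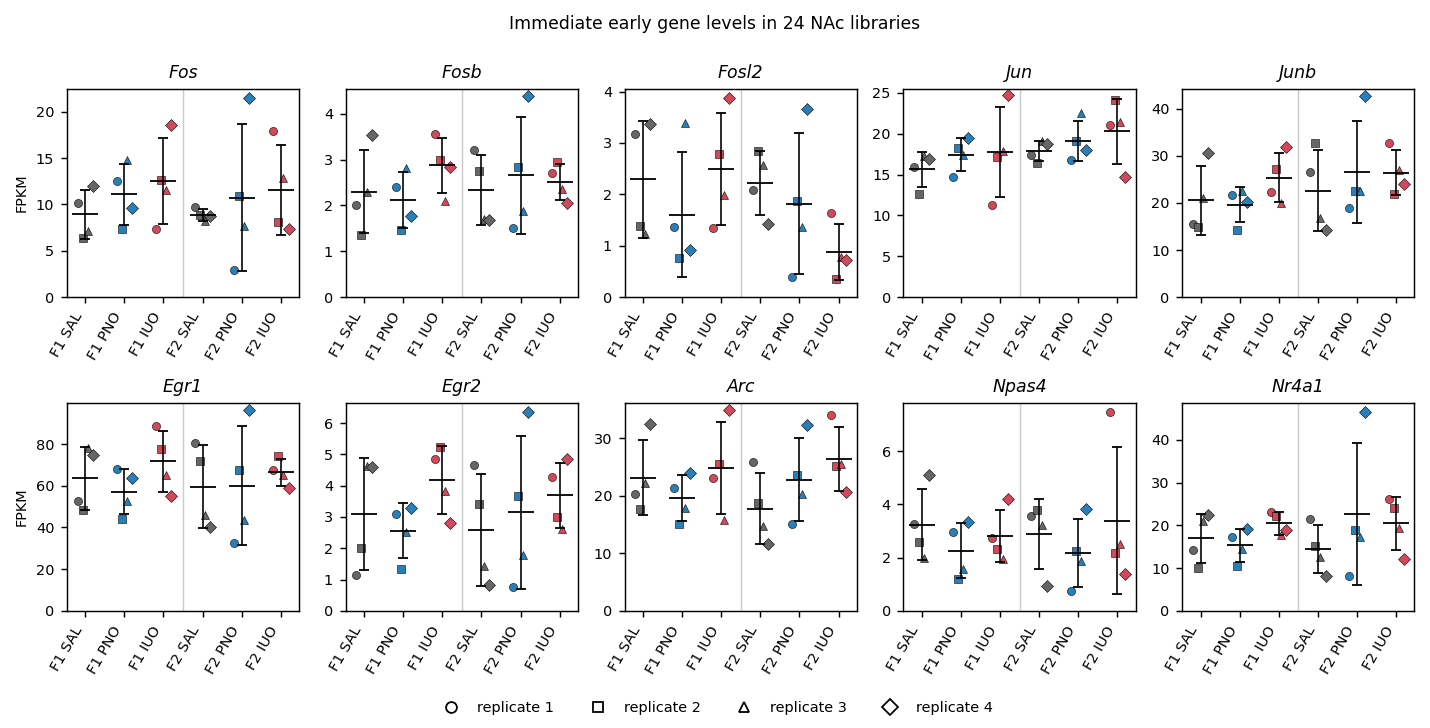
FPKM of each gene (vertical axes, starting at 0) in the 24 libraries by group, with marker shape for the replicate number, a horizontal line for the group mean and bars for the SD (n = 4). F2 PNO replicate 4 was the highest of all 24 libraries for 6 genes and F2 PNO replicate 1 the lowest for 5.

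The spread between libraries of a group, taken on log2(FPKM + 0.1), was wide for some of these genes. Egr2 had a within-group SD of 0.85 on that scale, larger than that of 82.5% of the 19134 genes tested over all libraries. Fosl2 (SD 0.83), Npas4 (0.78), Fos (0.64) and Nr4a1 (0.59) followed, while Junb, Egr1 and Arc, at 0.42, 0.41 and 0.41, lay near the median over all genes of 0.41. Jun was the steadiest member, with an SD of 0.27, larger than that of 29.8% of genes. From the lowest to the highest library the range was 2.20-fold for Jun, 2.96-fold for Egr1, 7.47-fold for Fos, 9.96-fold for Npas4 and 11.1-fold for Fosl2.

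Fos encodes the inducible AP-1 subunit most used as an activity marker. In F1 the replicates 1 to 4 held 10.2, 6.39, 7.17 and 12.03 FPKM in SAL, 12.6, 7.32, 14.8 and 9.59 in PNO, and 7.32, 12.6, 11.5 and 18.6 in IUO. In F2 they held 9.72, 8.83, 8.18 and 8.70 FPKM in SAL, 2.88, 10.9, 7.64 and 21.5 in PNO, and 17.9, 8.13, 12.8 and 7.38 in IUO. The F2 SAL libraries were nearly level, and the F2 PNO libraries spanned both the lowest and the highest Fos level of the series. Group means were 8.94 ± 2.63 FPKM in F1 SAL, 12.5 ± 4.64 in F1 IUO, 8.86 ± 0.640 in F2 SAL and 11.5 ± 4.85 in F2 IUO (SD, n = 4), and all groups overlapped. The log2 difference between IUO and SAL was 0.45 (SE 0.29) in F1 and 0.29 (SE 0.26) in F2, with limma adjusted p = 0.999 and 0.735.

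Fosb, whose truncated product ΔFosB accumulates in the striatum after repeated drug exposure, is counted here over all its transcripts. Its libraries held 2.01, 1.36, 2.30 and 3.54 FPKM in F1 SAL and 3.57, 2.99, 2.09 and 2.85 in F1 IUO. In F2 PNO it ranged from 1.51 in replicate 1 to 4.39 in replicate 4, the highest of the series. Its F2 SAL libraries split into 3.22 and 2.75 FPKM in replicates 1 and 2 and 1.70 and 1.68 in replicates 3 and 4. The largest difference of Fosb in the 6 comparisons within a generation was 0.44 (SE 0.25) on the log2 scale, for F1 IUO against F1 PNO.

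Fosl2 encodes Fra-2, a Fos family member that lacks the strong activation domain of Fos, and its F2 IUO libraries were low. They held 1.64, 0.35, 0.78 and 0.73 FPKM, against 2.08, 2.84, 2.56 and 1.42 in F2 SAL and 1.35, 2.79, 1.98 and 3.87 in F1 IUO. All but replicate 1 of F2 IUO were below every library of both those groups, and replicate 1 overlapped with each. The means were 0.875 ± 0.545 FPKM in F2 IUO, 2.23 ± 0.622 in F2 SAL and 2.498 ± 1.09 in F1 IUO (SD, n = 4). F2 PNO held 0.38, 1.87, 1.36 and 3.66 FPKM, from below to above the F2 SAL range. F1 PNO held 1.36, 0.76, 3.39 and 0.91 FPKM, all but replicate 3 inside the F2 IUO range.

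For F2 IUO against F2 SAL the Fosl2 difference was -1.38 on the log2 scale (SE 0.42, 95% interval -2.32 to -0.43), with an unadjusted p of 0.00915 but a limma adjusted p of 0.501. The exact two-sided permutation test of the 8 libraries gave p = 0.0571, where the smallest possible is 0.0286. Against F1 IUO the difference was -1.48 (SE 0.47), unadjusted p = 0.0103 and limma adjusted p = 0.236. Against F2 PNO it was -0.80 (SE 0.65), unadjusted p = 0.251 and limma adjusted p = 0.872. The IUO effect itself differed between the generations by -1.53 (SE 0.62), with limma adjusted p = 0.924. Fosl2 was the member with the largest share of its variance between groups, 33.8% against a median of 27.8% over all genes.

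Jun, the main partner of Fos in AP-1, overlapped between all groups. Its group means ran from 15.7 ± 2.12 FPKM in F1 SAL to 20.3 ± 3.98 in F2 IUO (SD, n = 4), and the F1 IUO libraries, at 11.2, 17.2, 17.9 and 24.8 FPKM, held both its lowest and its highest value. In F2 PNO its libraries held 16.9, 19.1, 22.6 and 17.97 FPKM, so that replicates 1 and 4, the extremes for other members, were close together. Its difference between IUO and SAL was 0.14 (SE 0.22) in F1 and 0.16 (SE 0.16) in F2 on the log2 scale.

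Junb, a Jun family member that dampens Jun activity, had its highest level in F2 PNO replicate 4. The F2 PNO libraries held 18.9, 22.5, 22.5 and 42.8 FPKM, the first 3 close together. In F2 SAL it held 26.6, 32.7, 16.7 and 14.3 FPKM and in F2 IUO 32.8, 22, 27.0 and 24. The IUO libraries thus lay within the range of the F2 SAL libraries apart from replicate 1, which exceeded it slightly. F1 means were 20.5 ± 7.28 FPKM in SAL, 19.7 ± 3.75 in PNO and 25.4 ± 5.28 in IUO (SD, n = 4).

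Egr1, also called Zif268, is an activity-regulated zinc finger factor tied to lasting synaptic change. In F1 its libraries held 52.9, 48.4, 78.0 and 74.8 FPKM in SAL, 68.0, 44.3, 52.8 and 63.7 in PNO, and 88.7, 77.9, 65.1 and 55.2 in IUO. In F2 they held 80.7, 71.9, 45.8 and 40.1 FPKM in SAL, 32.6, 67.8, 43.3 and 96.5 in PNO, and 67.6, 74.0, 64.9 and 59.0 in IUO. The F2 IUO libraries were the tightest, at 66.4 ± 6.26 FPKM (SD, n = 4), and lay inside the ranges of F2 SAL and F2 PNO. Between IUO and SAL the log2 difference was 0.18 (SE 0.20) in F1 and 0.21 (SE 0.21) in F2.

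Egr2, or Krox20, serves in neurons as an activity-induced factor and is also the myelination regulator of Schwann cells. It held 1.13, 2, 4.64 and 4.59 FPKM in F1 SAL, 3.08, 1.33, 2.51 and 3.30 in F1 PNO and 4.86, 5.24, 3.83 and 2.81 in F1 IUO. In F1, 3 of the 4 IUO libraries were above every PNO library, and replicate 4 fell among them. The means were 4.19 ± 1.09 FPKM in F1 IUO and 2.56 ± 0.882 in F1 PNO (SD, n = 4), a log2 difference of 0.73 (SE 0.31) with an unadjusted p of 0.0416 and a limma adjusted p of 0.285. In F2 PNO, replicates 1 and 4 held 0.76 and 6.36 FPKM, an 8.37-fold difference between pups of a single group.

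Arc held 25.9, 18.8, 14.8 and 11.6 FPKM in F2 SAL and 34.1, 25.2, 25.5 and 20.7 in F2 IUO. The F2 IUO libraries were high, but the SAL library at 25.9 FPKM exceeded 3 of them. The means were 26.4 ± 5.59 and 17.8 ± 6.18 FPKM (SD, n = 4), and the log2 difference was 0.61 (SE 0.24, 95% interval 0.06 to 1.15), with an unadjusted p of 0.0331 and a limma adjusted p of 0.567. The cortical markers differed between the same libraries, with a summed level of 196.95 to 379.68 FPKM in F2 IUO and 150.83 to 244.09 in F2 SAL, and 5 of the 8 genes higher at an unadjusted p under 0.05. With the mean log2 level of the cortical genes as a covariate the Arc difference was 0.18, with an unadjusted p of 0.524, while that of Fosl2 was -1.61, with an unadjusted p of 0.0236. In F1, Arc held 20.3, 17.7, 22.2 and 32.6 FPKM in SAL and 23.2, 25.6, 15.8 and 35.01 in IUO, which overlapped throughout.

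Npas4, which responds almost exclusively to calcium entry and organises inhibitory synapses, held its highest level in F2 IUO replicate 1. The F2 IUO libraries held 7.47, 2.16, 2.52 and 1.40 FPKM, with a mean of 3.39 ± 2.76 (SD, n = 4) that rested on that library. The same library had the highest choroid plexus sum of the series, 12236.32 FPKM, and the lowest striatal sum, 429.52 FPKM. Their part in this value was not tested. F2 SAL held 3.56, 3.80, 3.22 and 0.93 FPKM and F2 PNO 0.75, 2.23, 1.87 and 3.83. Npas4 was the single member with a lower mean in F1 IUO than in F1 SAL, at 2.81 ± 0.993 against 3.24 ± 1.35 FPKM, a log2 difference of -0.17 (SE 0.32).

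Nr4a1, also called Nur77, held 17.4, 10.4, 14.4 and 19.1 FPKM in F1 PNO and 23.2, 22.1, 17.7 and 18.9 in F1 IUO. The top PNO library overlapped with the lower 2 of IUO. The log2 difference was 0.44 (SE 0.19), with an unadjusted p of 0.0420 and a limma adjusted p of 0.285. In F2 PNO it held 8.12, 18.9, 17.3 and 46.6 FPKM, and the value in replicate 4 was far above the next highest library of the series, F2 IUO replicate 1 at 26.1 FPKM.

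Set side by side, the group comparisons returned no member past an adjusted p under 0.05 (limma, Benjamini-Hochberg over all genes tested). In a test over all 6 groups 0 of 10 genes passed, against 0.141% of 19134 genes, and the smallest unadjusted p was 0.110, for Fosl2 (adjusted p = 0.382). At an unadjusted p under 0.05 this test also called 0 of the 10, against 16.6% of all genes. Comparisons that share a group are not independent: IUO and PNO of a generation were set against the same SAL libraries. The members other than Jun also moved together within groups, as given below. A count of members with estimates above 0 is therefore not a count of independent results.

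In F1 IUO against F1 SAL, 0 of 10 genes had an adjusted p under 0.05 (0% of 17380 genes in limma), and 0 an unadjusted p under 0.05 (3.91% of all genes). The estimates were above 0 for 9 of 10 genes, against 51.6% of all genes, with a median of 0.26 beside 0.01 over all genes on the log2 scale. They ran from -0.17 for Npas4 to 0.60 for Egr2 (SE 0.43). Beside them, 8 of 8 cortical genes were above 0 (median 1.14 on the log2 scale, summed level 210.93 to 249.21 FPKM in IUO and 15.15 to 347.54 in SAL). So were 6 of 6 hypothalamic genes (median 1.91, 4 at an unadjusted p under 0.05, 43.77 to 158.43 and 10.47 to 57.29 FPKM). Blood genes were above 0 in 3 of 3 tested rows (median 1.98, 2 at an unadjusted p under 0.05, 27.96 to 410.32 and 12.93 to 88.5 FPKM). The part of the hypothalamic and blood markers was not tested. In F1 PNO against F1 SAL the counts were again 0 adjusted (0% of 17494 genes in limma) and 0 unadjusted (13.9%). Here 2 of 10 estimates were above 0, those of Fos and Jun, against 43.6% of all genes, with a median of -0.12 beside -0.05. Cortical genes were above 0 in 8 of 8 here too (median 1.17, 165.65 to 287.59 FPKM in PNO and 15.15 to 347.54 in SAL).

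F1 IUO against F1 PNO gave 0 genes by adjusted p (0.133% of 17306 genes in limma) and 2 of 10 by unadjusted p, Egr2 and Nr4a1, against 16.5% of all genes in both directions and 10.1% higher in IUO. That share is near the background. Estimates were above 0 for 9 of 10 genes (54% of all genes), with Jun, at -0.02 (SE 0.21), the exception, and the median was 0.36 beside 0.03. Beside them, all 10 striatal marker genes had estimates above 0 and all 6 thalamic genes below 0, 5 of 6 hypothalamic genes were higher at an unadjusted p under 0.05 (43.77 to 158.43 FPKM in IUO and 3.99 to 12.7 in PNO), and the summed thalamic level was 25.19 to 140.94 FPKM in F1 IUO and 117.42 to 303.84 in F1 PNO, with Lhx9 at 0 in F1 IUO replicate 1 and no thalamic gene at 0 in F1 PNO. All 6 microglial genes had estimates above 0 (median 0.47), 3 of them at an unadjusted p under 0.05. The part of these markers in the members' values was not tested.

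In F2 IUO against F2 SAL, 0 genes passed by adjusted p (0% of 17097 genes in limma) and 2 of 10 had an unadjusted p under 0.05 (8.49% of all genes), Arc higher and Fosl2 lower. Estimates were above 0 for every member but Fosl2, against 39.6% of all genes, with a median of 0.25 beside -0.08. In the same comparison 7 of 8 cortical genes were above 0 (median 0.79), and 10 of 10 striatal genes (median -0.51, 3 at an unadjusted p under 0.05; 429.52 to 1050.37 FPKM in IUO and 798.65 to 1073.29 in SAL) and 6 of 6 microglial genes (median -0.39, 2 at an unadjusted p under 0.05; 121.45 to 185.88 and 140.58 to 200.26 FPKM) below 0. Blood genes were above 0 in 3 of 3 tested rows (median 1.66, 2 at an unadjusted p under 0.05). The part of the striatal, microglial and blood markers was not tested. F2 PNO against F2 SAL gave 0 adjusted (0.00576% of 17367 genes in limma) and 0 unadjusted (10.8%), with 6 of 10 estimates above 0 (41.7%). Its standard errors reached 0.69, for Egr2, since F2 PNO was the most variable group, with a median coefficient of variation over the members of 53.6% against 24.8% to 35% in the other 5 groups. In this comparison 6 of 6 microglial genes were below 0 (median -0.44, 2 at an unadjusted p under 0.05). Blood genes were above 0 in 3 of 3 tested rows (median 1.58, 2 at an unadjusted p under 0.05), and 6 of 6 oligodendrocyte genes were above 0 (median 0.16). The part of these 3 lists was not tested. In F2 IUO against F2 PNO the counts were 0 adjusted (0% of 17090 genes in limma) and 0 unadjusted (7.07%), and 9 of 10 estimates were above 0 (48.2%). There 8 of 8 cortical genes were above 0 (median 1.29; 196.95 to 379.68 FPKM in IUO and 27.23 to 335.09 in PNO) and 10 of 10 striatal genes below 0 (median -0.39), and the part of the striatal markers was not tested.

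Between the generations, F2 SAL against F1 SAL gave 0 genes at an adjusted p (0.0343% of 17497 in limma) and 0 at an unadjusted p under 0.05 (8.48%), with 5 of 10 estimates above 0 (47%). F2 IUO against F1 IUO gave 0 adjusted (0% of 16916 in limma) and 1 unadjusted, Fosl2 (15%). F2 PNO against F1 PNO gave 0 adjusted (0.0288% of 17370 in limma) and 0 unadjusted (4.76%). For the difference of the IUO effect between generations the counts were 0 adjusted (0% of 18437) and 1 unadjusted, Fosl2 (5.15%), and for that of the PNO effect 0 (0% of 18608) and 0 (4.06%), all in limma. In none of the 9 comparisons of 2 groups were the groups free of overlap for any of the 10 genes. Of all genes, groups without overlap were found for 2.54% in F1 IUO against F1 SAL, 8.27% in F1 PNO against F1 SAL, 10.5% in F1 IUO against F1 PNO, 5.11% in F2 IUO against F2 SAL, 7.01% in F2 PNO against F2 SAL and 4.74% in F2 IUO against F2 PNO. Between the generations the share was 4.98% for SAL, 10.7% for IUO and 3.34% for PNO.

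The intervals show what differences remained possible. For F1 IUO against F1 SAL they reached 1.10 for Fos, 1.57 for Egr2 and 0.62 for Egr1 on the log2 scale, and for F2 PNO against F2 SAL 1.75 for Egr2 and 1.55 for Nr4a1. Differences up to these sizes were within what 4 libraries a group could leave unseen. For Jun the intervals against SAL were -0.35 to 0.63 for F1 IUO, -0.14 to 0.45 for F1 PNO, -0.19 to 0.51 for F2 IUO and -0.20 to 0.37 for F2 PNO.

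**Figure D2:**
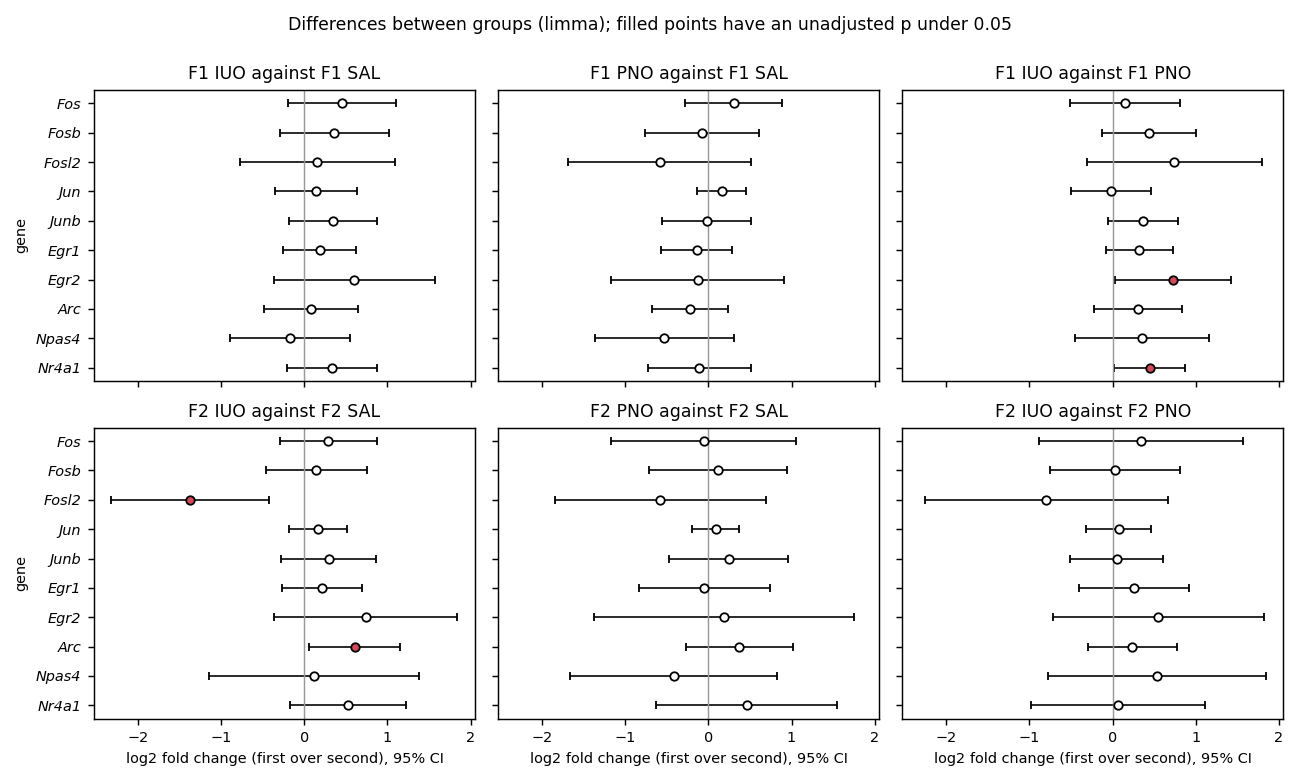
Log2 fold change of each gene (horizontal axis, first group over second) with its 95% interval in the 6 comparisons within a generation, from limma on log2(FPKM + 0.1). Filled points have an unadjusted p under 0.05, namely Egr2 and Nr4a1 in F1 IUO against F1 PNO and Fosl2 and Arc in F2 IUO against F2 SAL, and no gene had an adjusted p under 0.05.

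Other genes of the activity response were read from lists of 24 rapidly induced genes, 7 late effector genes and 12 upstream kinases and factors. None of them passed an adjusted p under 0.05 in limma in any comparison. Of the rapid genes, 2 were higher and 2 lower at an unadjusted p under 0.05 in F1 PNO against F1 SAL, where the background was 6.11% higher and 7.83% lower. Egr3, an EGR factor induced by neuronal activity, had 8.21 FPKM in F1 PNO and 13.4 in F1 SAL, a log2 difference of -0.69 (SE 0.17) with an adjusted p of 0.231. All 4 PNO libraries lay below all SAL libraries, as for 4.8% of all genes, and this was not the case for Egr1 or Egr2. The upstream factor Mef2d was at 34.8 and 49.7 FPKM in the same groups, and the late gene Nrn1, a neurite growth factor, at 48.4 and 19.6 FPKM, each with an adjusted p of 0.231 in limma. In this comparison 6 of 6 thalamic genes were higher at an unadjusted p under 0.05 in limma (median 1.69). Their summed level was 117.42 to 303.84 FPKM in PNO and 17.7 to 150.51 in SAL. Striatal genes were below 0 in 10 of 10 (median -0.49) and cortical genes above 0 in 8 of 8 (median 1.17). The part of the thalamic and striatal markers in the values of Egr3, Mef2d and Nrn1 was not tested.

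In F1 IUO against F1 PNO, Srf, the factor that binds the CArG box, was at 18.6 against 13.3 FPKM (log2 difference 0.48, SE 0.12, limma adjusted p = 0.136), and the groups did not overlap, with IUO higher, as for 6.26% of all genes tested. Bdnf, a late activity gene, was at 0.853 against 1.67 FPKM, the opposite order to the members, with an adjusted p of 0.159. In F2 IUO against F2 SAL, Nr4a2, the paralog of Nr4a1, was at 10.2 against 4.46 FPKM (log2 difference 1.06, SE 0.32, limma adjusted p = 0.495), and the groups did not overlap, with IUO higher, as for 2.37% of all genes tested. Of the 24 rapid genes 4 were higher and 0 lower at an unadjusted p under 0.05 in that comparison, where 3.52% of all genes were higher and 4.97% lower. Of the upstream genes 0 were higher and 3 lower there. In F2 PNO against F2 SAL, Dusp1, a phosphatase that turns off MAP kinases, was at 17.6 against 10.3 FPKM (adjusted p = 0.399). In F2 IUO against F2 PNO, Jund was at 114 against 79.4 FPKM (adjusted p = 0.527), both in limma.

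Within groups, the members other than Jun moved together from library to library. Each gene was centred on its group mean and the Pearson correlation taken over the 24 libraries, with p from 100000 permutations of libraries within groups. The median r over the 45 pairs of members was 0.668 (Spearman 0.655), against 0.093 over all 93523326 pairs of the 13677 genes with a mean of at least 1 FPKM. In 33 of 45 pairs (73.3%) r was at least 0.5, as in 11.5% of all pairs. Of the 45 pairs 31 had an adjusted permutation p under 0.05 (Benjamini-Hochberg over the 45 pairs) by Pearson and 29 by Spearman. All pairs share their libraries, so these counts are not independent of each other.

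The strongest pairs were Egr1 with Egr2 (r = 0.908), Egr1 with Nr4a1 (0.898), Fos with Fosl2 (0.896), Fosb with Egr1 (0.849), Junb with Arc (0.848) and Arc with Npas4 (0.840). For Egr1 and Nr4a1 and for Arc and Npas4 the permutation p was 1e-05, the smallest that 100000 permutations can give (adjusted p = 0.000225). Without the 2 libraries farthest from the median of the first gene, r was 0.862 for Egr1 with Egr2, 0.824 for Egr1 with Nr4a1 and 0.842 for Fos with Fosl2. The same step left a median of 0.558 over all 45 pairs, and 3 of the 31 pairs, with a lowest r of 0.344 for Egr2 with Npas4, came under 0.4.

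The pairs were not uniform. Fos and Fosl2 moved with each other more closely than either did with the EGR genes: r was 0.511 for Fos with Egr1 and 0.480 with Egr2 (adjusted permutation p = 0.107 and 0.0946), and 0.371 for Fosl2 with Egr1. Without the 2 farthest libraries these came to 0.08, 0.10 and -0.01, so that they rested on those libraries. Fosb, by contrast, moved with Egr1 and with Nr4a1 (0.838). Whether the correlations of different pairs differ was not tested.

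Jun stood outside. Its correlations with the other 9 members ran from -0.173 with Egr2 to 0.359 with Fos, with a median of 0.166, and 0 of 9 had an adjusted permutation p under 0.05. Fosb, Junb, Arc and Npas4 each had 8 partners past that threshold, Nr4a1 had 7, Fos, Egr1 and Egr2 had 6 and Fosl2 had 5. In both generations the pairs of Jun with Egr1 and Egr2 were below 0, at -0.317 and -0.115 over the 12 F1 libraries and -0.03 and -0.255 over the 12 F2 libraries.

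**Figure D3:**
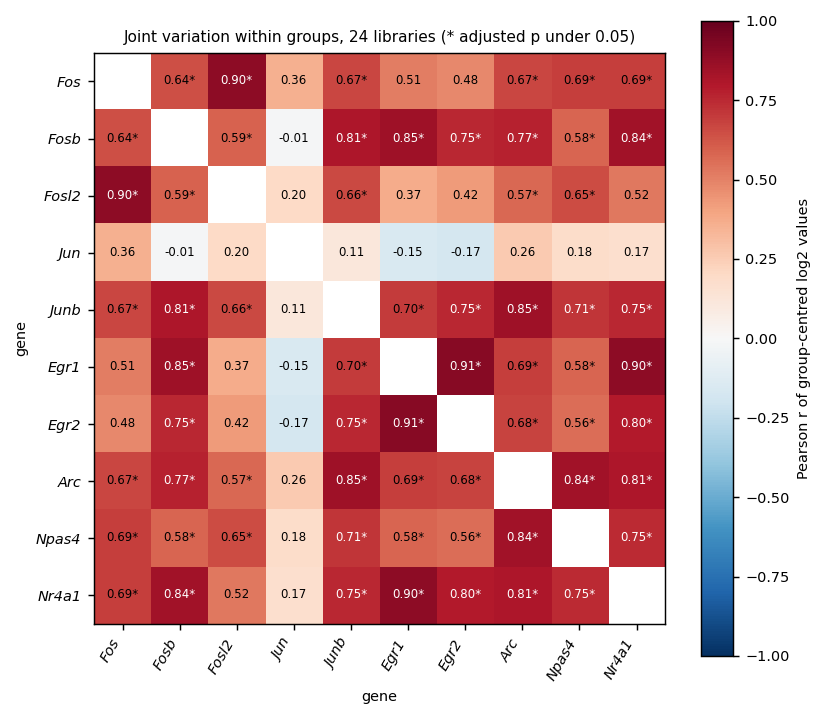
Pearson r of group-centred log2(FPKM + 0.1) for each pair of the 10 genes over 24 libraries, from -1 in blue to 1 in red, with an asterisk for an adjusted permutation p under 0.05 over the 45 pairs. The row of Jun is pale, with r between -0.17 and 0.36, and the remaining pairs run from 0.37 to 0.91.

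The 2 generations were also taken apart. Over the 12 F1 libraries the median r was 0.483, with 39 of 45 pairs above 0 and 21 at least 0.5, and over the 12 F2 libraries 0.752, with 41 above 0 and 36 at least 0.5. The pairs of Egr1 with Egr2 (0.869 in F1 and 0.925 in F2), Fos with Fosl2 (0.913 and 0.905) and Junb with Arc (0.857 and 0.846) were high in both. With an adjusted permutation p under 0.05, 5 pairs passed in F1 and 33 in F2. Whether the generations differ in this was not tested.

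The libraries at the ends of this joint variation were both in F2 PNO. Replicate 1 was the lowest of its group for 10 of 10 genes, with a mean deviation of -0.97 from the group mean on the log2 scale, and replicate 4 was the highest for 9 of 10, with 0.92. Between them Fos differed 7.47-fold, Fosl2 9.63-fold, Nr4a1 5.75-fold, Npas4 5.11-fold, Egr1 2.96-fold and Jun 1.07-fold. Without these 2 libraries, the median r over 45 pairs was 0.565, with 24 pairs at least 0.5 and 22 with an adjusted permutation p under 0.05. Egr1 with Egr2 was then at 0.864 and Fos with Fosl2 at 0.841.

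Other groups had such libraries as well. F1 SAL replicate 4 and F2 IUO replicate 1 were above their group mean for 10 of 10 genes, with mean deviations of 0.53 and 0.47. F1 SAL replicate 2 was above it for 0 of 10, F1 PNO replicate 2 was the lowest of its group for 9 of 10 and F2 SAL replicate 4 for 8 of 10. Each of the 6 groups except F1 IUO thus held a library in which 7 or more of the 10 genes were at the bottom of the group. In F1 IUO the mean deviations ran from -0.24 to 0.24, and single members went opposite ways. Replicate 1 held Fosl2 at -0.74 and Egr1 at 0.33, and replicate 4 Fosl2 at 0.71 and Egr2 at -0.52.

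**Figure D4:**
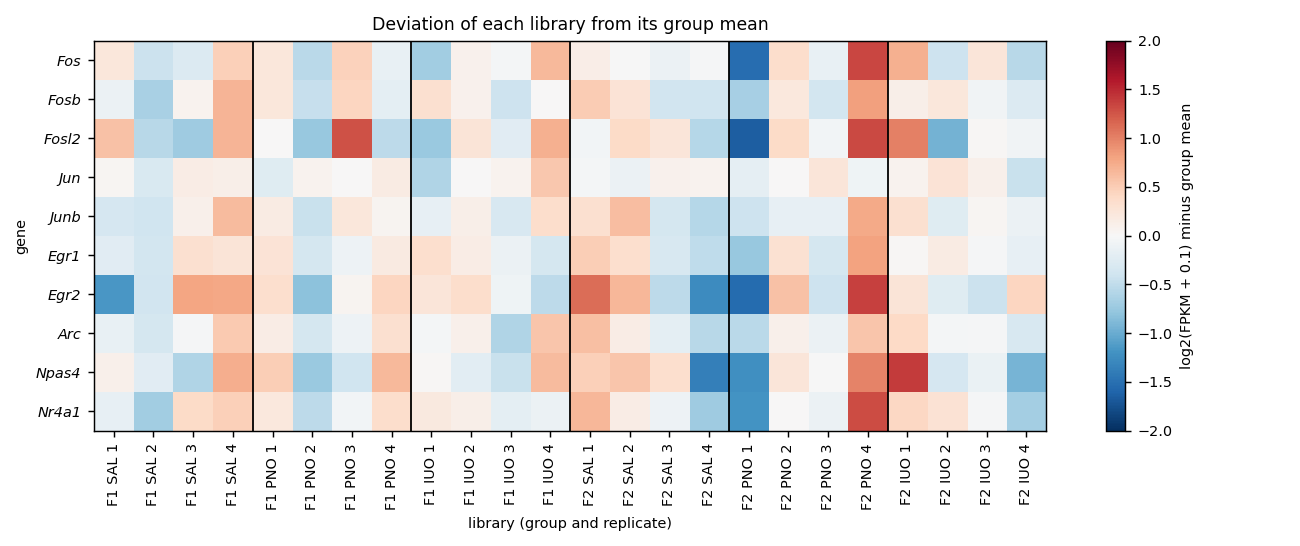
Deviation of log2(FPKM + 0.1) from the group mean for each gene (rows) and library (columns, grouped by black lines), blue below and red above. F2 PNO replicate 1 is blue and F2 PNO replicate 4 red in nearly every row, the row of Jun is pale in both these columns, and F1 SAL replicate 2, with 0 genes above its group mean, is blue in every row.

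Markers of other tissue and cells were also set beside the members within groups, and none of the correlations had an adjusted permutation p under 0.05. The summed level of the 8 cortical genes correlated above 0 with 10 of 10 members (median r 0.412), highest with Fosl2 (0.674) and Fos (0.640) and lowest with Jun (0.050). Over the 12 F1 libraries alone 6 of 10 were above 0 (median 0.236), with Egr1 at -0.176, Egr2 at -0.279, Nr4a1 at -0.026 and Jun at -0.002, and over the 12 F2 libraries 10 of 10 (median 0.754), with 0.784, 0.756 and 0.766 for Egr1, Egr2 and Nr4a1. The 6 oligodendrocyte genes correlated below 0 with 9 of 10 (median -0.568), most with Egr2 (-0.697) and Egr1 (-0.682), and Jun was again the exception at 0.256. These values were further below 0 in F2 (median -0.794) than in F1 (-0.276): Fos was at 0.364 in F1 and -0.838 in F2, and Fosl2 at 0.326 and -0.940. Without the 2 farthest libraries Fos came to 0.023 and Fosl2 to -0.102. Whether the generations differ in these correlations was not tested. The 6 thalamic genes had a median r of -0.345, with -0.703 for Egr2, -0.641 for Egr1 and 0.522 for Jun. Of the 100 correlations of 10 genes with 10 lists 0 had an adjusted permutation p under 0.05 and 23 an unadjusted permutation p under 0.05, of which 7 were with oligodendrocyte, 5 with thalamic and 3 with cortical genes. Endothelial genes correlated above 0 with 10 of 10 members (median 0.350). Without the 2 farthest libraries this median was 0.028, and it was -0.015 in F1 and 0.503 in F2. Of the 6 listed, 5 were found. Cldn5 was above 0 only in F1 PNO replicate 1 (3.7 FPKM) and F2 SAL replicate 3 (5.76 FPKM). Blood genes had a median of 0.279 and hypothalamic genes one of -0.383. Choroid plexus genes had one of 0.227, with 0.647 for Fosl2 and 0.607 for Fos. In F1 and F2 alone the choroid plexus medians were -0.077 and 0.514 and the hypothalamic ones 0.156 and -0.601. Striatal genes had a median of -0.024 between -0.454 for Fos and 0.396 for Egr2, and microglial and heat shock genes had medians of 0.037 and 0.063. In F1 and F2 alone the striatal medians were 0.200 and -0.248 and the microglial ones 0.355 and -0.142. Whether the generations differ in any of these medians was not tested.

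In F2 PNO replicate 1, where the members were low, Mbp was at 1737.94 FPKM, the highest of the 24 libraries, and Slc17a7, the glutamate transporter of cortical neurons, at 18.41 FPKM. In F2 PNO replicate 4 Slc17a7 was at 251.87 FPKM and Mbp at 440.57. The choroid plexus sum was 6786.96 FPKM there and 12236.32 in F2 IUO replicate 1, with mean deviations of the members of 0.92 and 0.47. It was also high in F1 IUO replicate 3 (8126.44), F1 SAL replicate 1 (5186.04) and F1 PNO replicate 3 (3802.53). The mean deviations of these libraries were -0.24, -0.12 and 0.18. F1 SAL replicate 3 had less of the cortical genes than any other library, with Slc17a7 at 3.94 FPKM. The mean deviation of its members was 0.02, with single genes from -0.71 for Fosl2 to 0.78 for Egr2. With the mean log2 level of the cortical genes regressed out, a step chosen after seeing the data, the median r over the 45 pairs was 0.442 and 21 pairs had an adjusted permutation p under 0.05. The part of the other marker lists in the joint variation was not tested.

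**Figure D5:**
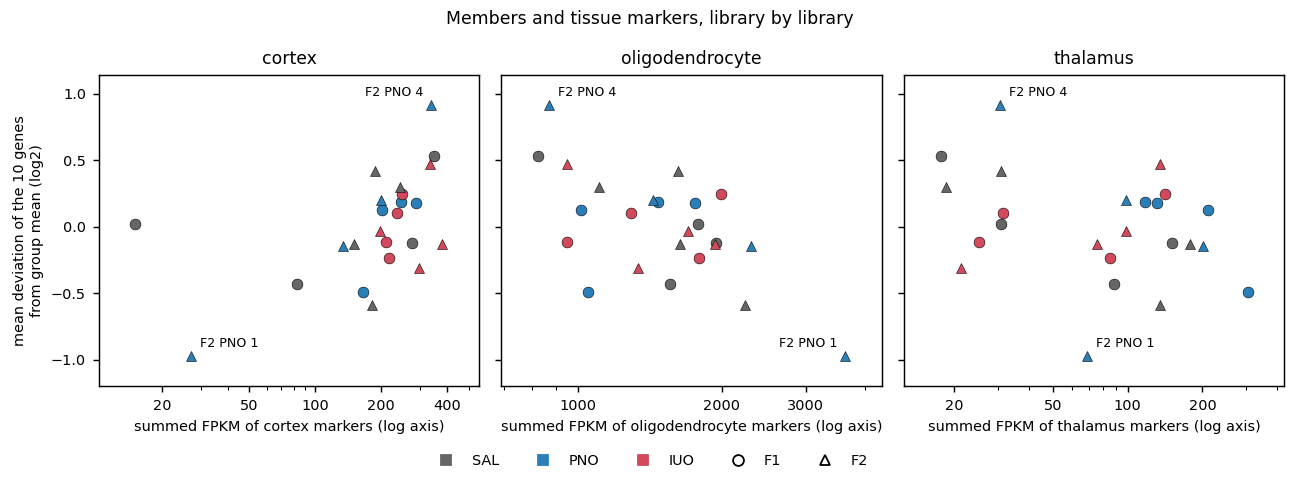
Mean deviation of the 10 genes from their group mean (vertical axis, log2) in each of the 24 libraries against the summed FPKM of cortical, oligodendrocyte and thalamic markers (horizontal log axes), coloured by treatment and shaped by generation. F2 PNO replicate 1, at -0.97, has a cortical sum of 27.23 and an oligodendrocyte sum of 3626.31 FPKM, and F2 PNO replicate 4, at 0.92, has 335.09 and 872.14 FPKM.

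Likeness to the members was ranked over all 13677 genes by the mean r with the 10 genes. Among the 12 highest outside the members were Kcng1 (0.717), Plxna3 (0.707), Nuak1 (0.690), AABR07026032.1 (0.678), Atp2b4 (0.675), Nr4a3 (0.671), Gpr27 (0.663), Kcnh1 (0.660), Adrb1 (0.657) and Agap2 (0.655). Kcng1 and Kcnh1 encode potassium channel subunits, Atp2b4 a plasma membrane calcium pump and Adrb1 a noradrenaline receptor, and Nr4a3 is the third NR4A receptor. A mean r of at least 0.5 was reached by 10 of the 21 rapid genes above 1 FPKM, 4 of the 12 upstream genes and 0 of the 6 late genes, against 7.77% of all genes.

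Among the rapid genes Nr4a3, Klf10 (0.614), Egr4 (0.586) and Dusp6 (0.585) led, and Klf4, at -0.221, was lowest. Among the upstream genes Srf (0.625), Camk2a (0.590) and Mef2c (0.581) led, and Mapk3, at -0.206, was lowest. Among the late genes Pcsk1 (0.342) and Bdnf (0.310) were highest, and Vgf, Scg2 and Nrn1 were at or below 0. Per1, a clock gene that is also rapidly induced, was at 0.475 and Nptx2, which clusters AMPA receptors, at 0.206.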

How the data were processed

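RNA from the NAc of 24 P14 pups was sequenced, and the authors deposited a table of FPKM per gene for each library. Per the labels, the authors' processing notes name HISAT2, SAMtools, StringTie and edgeR, without versions, and the genome build is not given in the sources used here. Counts were not analysed here and the depth is unknown, so no counting interval or floor is given. The deposited FPKM values were not rescaled between libraries. Groups came from the generation and treatment labels, and the 4 libraries of a group are pups of separate litters. No 2 libraries of a group had the same value for more than 0.387% of genes at 1 FPKM or more.

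Linear models were fitted with limma 3.58.1 (R 4.3.3, moderated with a mean-variance trend) to log2(FPKM + 0.1), a scale that understates the change of low genes, in the 8 libraries compared (16 for the 2 differences between generations, 24 for the test over the 6 groups). Genes needed 0.1 FPKM in 4 libraries. Adjusted p are Benjamini-Hochberg values over all genes tested, and tests are two-sided. A log-scale model was used because the deposited FPKM are not counts. The procedure was tested on simulated data. Correlations, exact permutation tests over 35 splits and motif searches used Python 3.11.15 with numpy 2.4.6, scipy 1.17.1 and pandas 2.3.3, and figures matplotlib 3.10.9.

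The members and the gene lists were chosen with earlier results of these data known. All 10 members were named in each comparison, together with at most 3 list genes with the smallest unadjusted p under 0.05 in a comparison and the 12 genes most alike, of which 2 are not reported here. Genes that illustrate a marker list, and those named by their likeness within a list, were chosen after their values were seen. Alternatives were a pseudocount of 1, other filters on low values, upper-quartile rescaling, all 24 libraries in 1 fit, a cortical marker covariate, a replicate block and leaving out each library.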

Additional observations from a re-analysis of the deposited data

Results flagged for a closer look

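Junb in F2 PNO replicate 4, at 42.8 FPKM, was far from the other 3 libraries of its group, which lay between 18.9 and 22.5 FPKM. Its gap to the nearest of them was 0.851 of the range of the group, above Dixon's 95% critical value for 4 libraries. It was the single case in the 60 combinations of gene and group examined, where chance gives about 1 in 20, or 3. The same library was also the highest of its group for 8 further members.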

How the results depend on the processing

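For the 9 comparisons, the 2 differences between generations and the test over the 6 groups, the number of members with an adjusted p under 0.05 stayed at 0 in all 214 alternative fits, those without a single library (range 0 to 0) and without F2 PNO replicates 1 and 4, a choice made after seeing the data, included, and the smallest adjusted p was 0.0616. The replicate numbers did not pair the libraries: same-numbered libraries correlated between -0.227 and 0.11, and in no pair of groups did every library correlate best with its own number. With a replicate block the count was 0 in each comparison, and Egr2 in F1 IUO against F1 PNO had an unadjusted p of 0.0705, Nr4a1 there one of 0.0469 and Arc in F2 IUO against F2 SAL one of 0.00285, where 3 members in place of 2 were under 0.05. The cortical covariate raised the number under an unadjusted 0.05 from 0 to 2 in F2 PNO against F2 SAL and in F2 IUO against F2 PNO and from 0 to 3 in F2 PNO against F1 PNO. The share of all genes called was not taken for the fits with a replicate block or this covariate. Their counts at an unadjusted p therefore have no background beside them and cannot be read as results about the members.

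By unadjusted p, Fosl2 in F2 IUO stayed under 0.05 against F2 SAL (-1.71 to -1.06 without single libraries) and against F1 IUO (-1.81 to -1.16) in every alternative run, at -0.80 and -0.89 with a pseudocount of 1. Egr2 (0.45 to 0.90) and Nr4a1 (0.27 to 0.56) in F1 IUO against F1 PNO lost it under upper-quartile rescaling (0.61 and 0.32), in the fit of all 24 libraries, with the cortical covariate (0.53 and 0.30) and without F1 PNO replicate 2 (0.45 and 0.27) or 3 or F1 IUO replicate 1 or 2, and Egr2 also without F1 IUO replicate 3. Arc in F2 IUO against F2 SAL (0.42 to 0.81) lost it under rescaling (0.53), with the cortical covariate (0.18) and without F2 SAL replicate 3 or 4 or F2 IUO replicate 1, 2 or 3. The Fosl2 difference between generations (-1.87 to -1.22) lost it without F1 SAL replicate 2 or 3, F1 IUO replicate 4, F2 SAL replicate 2 or F2 IUO replicate 2.

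Of the 45 pairs, 29 to 33 passed without single libraries, with a median r of 0.567 to 0.686, and 31 with a pseudocount of 1, with rescaling or without centring. In the 12 F1 libraries alone 5 passed and in the 12 F2 libraries alone 33, and the reason for this was not tested. With unknown depth, low levels such as those of Fosl2 and Npas4 have no known counting error.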
